A study of Homo sapiens with 3 samples.

Results

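The promoter capture Hi-C (PCHi-C) calls of hESC-CMs held 18977 pairs in which both *Hin*dIII fragments were promoter fragments, of 192832 pairs of fragments that lay on the same chromosome (9.84%). A pair was taken when its interacting fragment was itself listed as a promoter fragment in the calls of any of 3 biological replicates, and it was counted once whichever of the fragments came first. The hESC-CMs are heart muscle cells grown from WA09 (H9), a human embryonic stem cell line, and enriched in a lactate medium without glucose. The 3 replicates came from 1 cell line and 1 condition, so no comparison between conditions was possible. Replicates 1, 2 and 3 held 112473, 109731 and 110740 calls of any kind. Each call carries a CHiCAGO score, which measures the excess of read pairs over a background set by distance and technical noise, and the lowest score listed was 5. A pair that is missing from a replicate had no score of 5 or more listed there and was not shown to be absent.

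In PCHi-C, DNA is crosslinked, cut with *Hin*dIII and ligated, and the ligation products are enriched with probes against fragments that carry promoters. A pair of promoter fragments can therefore be captured through either end, whereas a promoter paired with a fragment that carries no probe is captured through the promoter alone. A captured fragment that was never listed as a promoter fragment counts as an other fragment here. Contacts between promoters are known for the replication-dependent histone genes, which gather at histone locus bodies, for clustered gene families and for genes under Polycomb repression. The zinc finger protein CTCF halts loop extrusion by cohesin most often where its motifs at the ends of a loop point towards each other.

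Promoter sequences are shown for some of the genes named below. The 250 bases before the RefSeq start (build GRCh38.p14, written 5′ to 3′) are given for *H2BC12* and *H2BC14*, whose fragments formed the highest-scoring histone pair, and for the cardiac genes *MYH6* and *NPPA*. The letters TATAAA (the TATA box), ATTTGCAT (the octamer bound by POU2F1 at histone H2B promoters), CATTCC (the core of the motif bound by TEAD factors) and AGATAA (bound by GATA factors) were searched on both strands, and matches are in capitals.
*H2BC12* (chr6:27146859-27147108, minus strand): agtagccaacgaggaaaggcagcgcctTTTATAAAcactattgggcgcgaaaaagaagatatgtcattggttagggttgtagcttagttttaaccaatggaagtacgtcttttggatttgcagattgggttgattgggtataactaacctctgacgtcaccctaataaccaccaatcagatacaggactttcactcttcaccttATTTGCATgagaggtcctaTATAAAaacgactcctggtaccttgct
*H2BC14* (chr6:27814772-27815021, plus strand): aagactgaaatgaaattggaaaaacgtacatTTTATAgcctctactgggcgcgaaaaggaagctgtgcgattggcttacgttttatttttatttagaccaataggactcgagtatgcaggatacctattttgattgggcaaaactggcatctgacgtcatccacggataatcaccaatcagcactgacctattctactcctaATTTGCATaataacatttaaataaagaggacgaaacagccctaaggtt
*MYH6* (chr14:23408274-23408523, minus strand): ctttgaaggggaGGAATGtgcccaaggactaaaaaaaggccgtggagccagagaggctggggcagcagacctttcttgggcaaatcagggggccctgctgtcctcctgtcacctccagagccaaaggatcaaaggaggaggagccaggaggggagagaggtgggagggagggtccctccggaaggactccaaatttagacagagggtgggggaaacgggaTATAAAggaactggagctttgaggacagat
*NPPA* (chr1:11847784-11848033, minus strand): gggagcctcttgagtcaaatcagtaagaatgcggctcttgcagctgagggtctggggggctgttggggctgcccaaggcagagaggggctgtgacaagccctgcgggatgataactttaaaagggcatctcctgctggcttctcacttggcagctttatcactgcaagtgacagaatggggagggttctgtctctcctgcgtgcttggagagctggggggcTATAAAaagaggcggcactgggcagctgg

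Both histone windows held the octamer once. The *H2BC12* window held TATAAA near each end, and at one of these ends TATAAA overlapped its own reverse complement. *H2AC12* also starts on this fragment, and whether that bears on these matches was not tested. The only TATAAA match in the *H2BC14* window was on the opposite strand, near the end far from the start of the gene. TATAAA was found in 43 of 67 RefSeq promoters of histone genes (64.2%) against 11.1% of all 27305 RefSeq promoters, and ATTTGCAT in 26 of 67 (38.8%) against 1.66%. These counts take a match on either strand and anywhere in the window, so a match need not be a TATA box of the named gene. Of the letters searched, *MYH6* held TATAAA and CATTCC once each, whereas *NPPA* held TATAAA alone. AGATAA was the only form of the GATA letters searched. Other forms, such as tgataa in the *NPPA* window, were not counted, so a GATA site there was not excluded. CATTCC and AGATAA were present in 11.9% and 9.37% of all promoters. Of the 11017 protein-coding genes with a start on a fragment of these pairs, 8682 matched a RefSeq promoter by symbol. A match is a run of letters and was not shown to be bound.

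The mature microRNAs of *MIR208A* and *MIR208B*, intronic genes of *MYH6* and *MYH7* whose fragments paired with each other and with *MYH7*, are shown with the seed (bases 2 to 8) in capitals, from RefSeq.
hsa-miR-208a-3p: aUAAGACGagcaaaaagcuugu
hsa-miR-208b-3p: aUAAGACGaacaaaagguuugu

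The microRNAs share their seed and differ at 3 of 22 positions. The letters aagcuu in miR-208a-3p are the *Hin*dIII site in RNA form, so the restriction digest itself cuts within this microRNA gene.

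The promoter label was checked against GENCODE v44. A start of an annotated transcript lay on 12260 of the 12671 promoter fragments that took part in these pairs (96.8%), against 9.94% of the 103402 other interacting fragments. A protein-coding start was present on 76.7% and 6.34% of them, respectively. Both fragments held a protein-coding start in 12328 of the 18977 pairs. One of the fragments did in 5537 pairs, and neither did in 1112. Fragments are named here by the genes that start on them, protein-coding genes first.

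Replicates 1, 2 and 3 called 11214, 11083 and 11273 pairs of promoter fragments (11190 ± 97.2, SD, n = 3). These made up 10.3, 10.4 and 10.5% of the calls within a chromosome. All 3 replicates called 5334 pairs (28.1%, 95% Wilson interval 27.5 to 28.8%), against 24.6% of all pairs within a chromosome. A further 3925 pairs were found in 2 replicates and 9718 in 1. The intervals cover counting error only. Of 19075 promoter fragments, 12671 (66.4%) had at least 1 promoter partner, and 5778 (30.3%) had 1 in a pair called in all 3 replicates. The remaining 6404 promoter fragments were listed with no promoter partner. Fragments with a partner in all 3 replicates had a median GC content of 47.7% and a median length of 5694 bp. Those without any promoter partner had 45.0% and 7540.5 bp, and fewer of them held a protein-coding start (67.5% against 78.4%).

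Promoter fragments were called with each other far more often than with other fragments at the same distance. Up to 1 Mb, 13049 of 198823 possible pairs of promoter fragments were called in at least 1 replicate (6.56%) and 4676 in all 3 (2.35%). For a promoter fragment and any other *Hin*dIII fragment, 98665 of 9358348 possible pairs (1.05%) were called in at least 1 replicate and 33262 (0.355%) in all 3. Neighbouring fragments were left out of the possible pairs, since none is listed in any replicate. Between 100 and 200 kb, replicates 1, 2 and 3 called 7.67, 7.36 and 7.29% of possible promoter pairs against 1.14, 1.10 and 1.07% of the others. The ranges of the groups did not overlap in this class or in any of the other 8 distance classes. The ratio of the 2 shares was 17.9 ± 0.725 between 20 and 50 kb and 6.74 ± 0.0722 between 100 and 200 kb (SD, n = 3). It was 5.50 ± 0.161 between 200 and 500 kb and 4.61 ± 0.162 between 2 and 10 Mb.

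**Figure D1:**
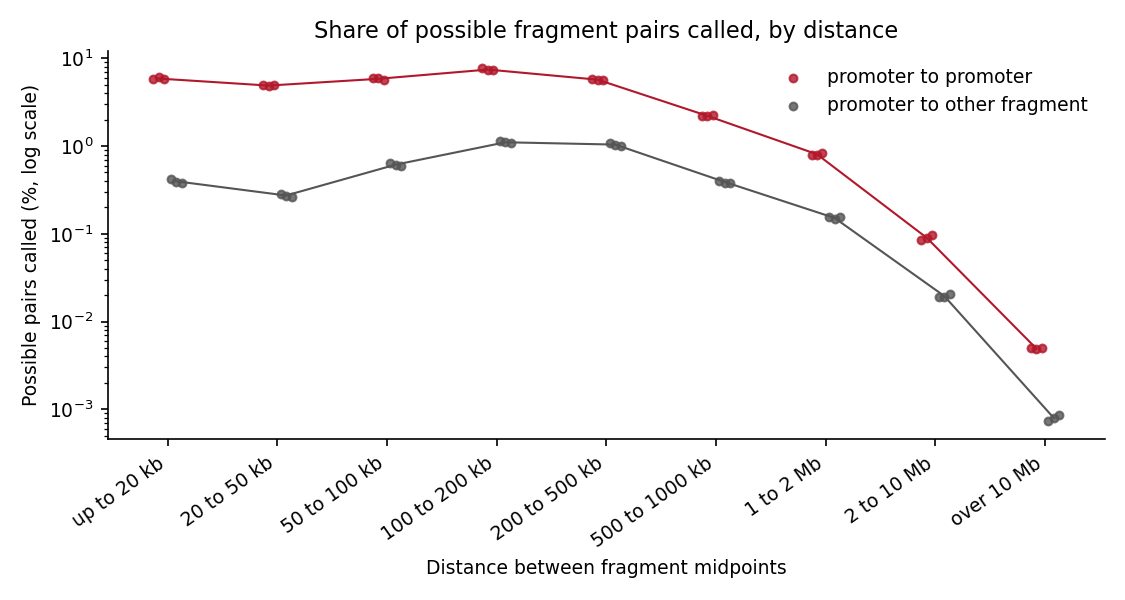
Share of possible fragment pairs called (%, log axis) in each class of distance between fragment midpoints, for pairs of promoter fragments and for a promoter fragment with any other fragment. Points are the 3 replicates and lines join their means; the promoter pairs lie above the others in all 9 classes, with the highest ratio, 17.9, between 20 and 50 kb.

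These ratios moved with the length of the partner fragment. Promoter fragments had a median length of 6591 bp and other called fragments one of 1919 bp. Between 100 and 500 kb, partners of 1000 bp or less were called in 10.6% of possible promoter pairs and 1.97% of the others, a ratio of 5.41. For partners between 8000 and 16000 bp the shares were 8.51% and 0.768%, a ratio of 11.1. Promoter partners were thus called more often in every length class, by at least 5.41 times. The length classes were chosen after seeing the data. A promoter fragment is known here only from its own listing, so the share was also taken over the 17741 promoter fragments that were listed with at least 1 non-promoter fragment. It was 6.56% of 169450 possible pairs up to 1 Mb, as for all promoter fragments. The part of capture through both ends in these shares was not tested.

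Contacts between promoters spanned shorter distances and had higher scores. Their median distance was 389.5, 398.9 and 411.6 kb in replicates 1, 2 and 3 (400.0 ± 11.1), and that of the other calls was 563.7, 570.5 and 604.6 kb (579.6 ± 22.0). Over the union of replicates, 68.8% of the promoter pairs and 56.8% of the others lay within 1 Mb. Median scores were 7.02, 7.11 and 7.08 for promoter pairs and 6.58, 6.58 and 6.59 for the others. Within classes of distance the median score was higher by 0.488, 0.569 and 0.538 (0.532 ± 0.0406), in 3 of 3 replicates. An exact two-sided sign-flip permutation test over the 3 replicates gave p = 0.25, the smallest value that 3 replicates allow. Scores of at least 10 were held by 22.6% ± 0.917 of promoter pairs and 16.5% ± 0.313 of the others, and scores of at least 20 by 3.54% ± 0.232 and 2.42% ± 0.0699.

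Recurrence between replicates differed with distance. Of the promoter pairs of replicates 1, 2 and 3, 47.6, 48.1 and 47.3% were called in all 3, against 43.0, 44.3 and 43.9% of the other calls. Within classes of distance this difference became 0.807, −0.302 and −1.44 percentage points (−0.312 ± 1.12, exact two-sided sign-flip permutation p = 0.75), with no common direction. Up to 20 kb, 74.6% ± 2.05 of a replicate's promoter pairs recurred in all 3 against 64.6% ± 3.92 of its other calls. Between 2 and 10 Mb it was 18.4% ± 1.28 against 22.7% ± 0.886, and over 10 Mb 1.70% ± 0.0301 against 7.74% ± 0.636. Promoter pairs thus recurred more often than the others at the shortest distances and less often at the longest.

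**Figure D2:**
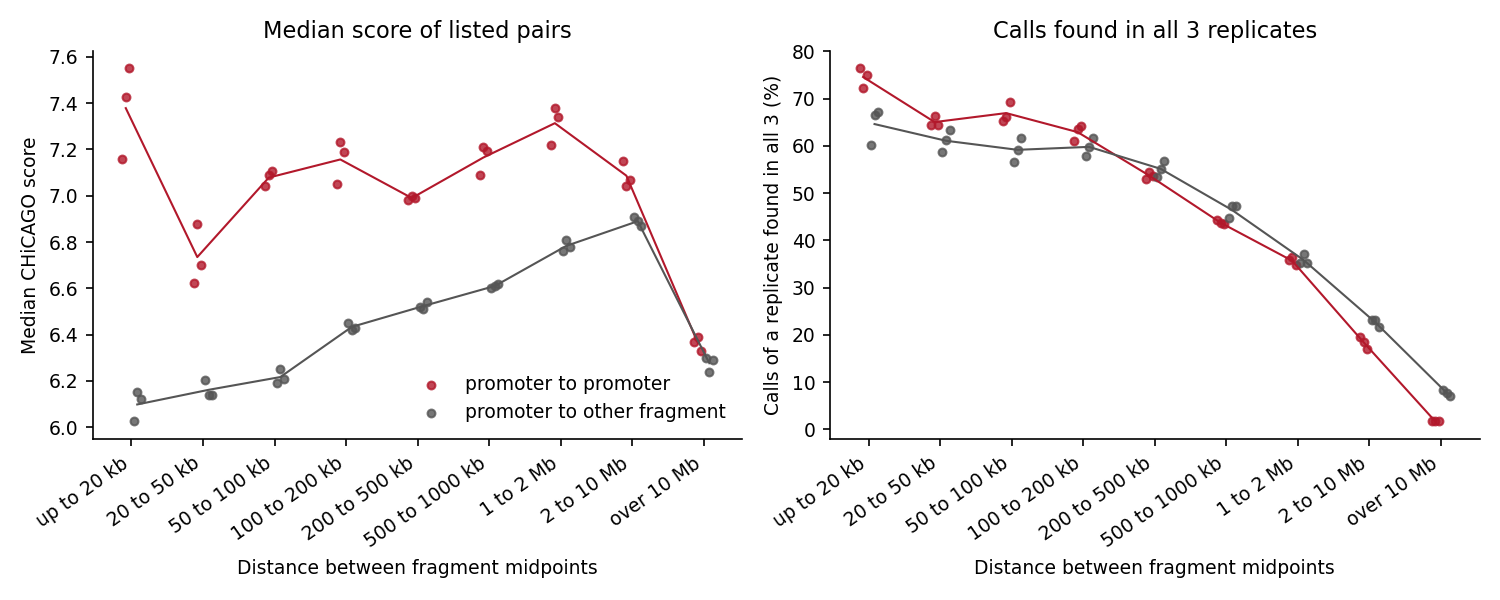
Median CHiCAGO score (left) and share of a replicate's calls found in all 3 replicates (right, %) by class of distance between fragment midpoints. Points are the 3 replicates and lines join their means; scores of promoter pairs lie above the others in all 9 classes, whereas the mean share found in all 3 lies above that of the others up to 200 kb and below it in each class beyond.

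The direction of transcription was close to even among called pairs. Of 8846 pairs in which each fragment held protein-coding starts on 1 strand, 4528 were tandem (51.2%), 2150 divergent (24.3%) and 2168 convergent (24.5%). Against the possible pairs up to 1 Mb, 6.79% of tandem, 6.44% of divergent and 6.88% of convergent pairs were called. In all 3 replicates it was 2.52, 2.20 and 2.47%.

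Letters resembling the CTCF motif were compared by their direction. The letters CCA, any 2 letters, AGG, any letter and GGC were found as 1 run on either strand of 11.4% of promoter fragments, at 20.3 matches per Mb of fragments with a promoter partner in all 3 replicates, 16.5 in those with a partner in fewer and 14.2 in those with none. Among fragments whose matches all ran one way, 75 of 928 possible pairs up to 1 Mb with matches pointing towards each other were called (8.08%), and 31 in all 3 replicates (3.34%). With matches pointing apart, 35 of 896 were called (3.91%) and 8 in all 3 (0.893%). Replicates 1, 2 and 3 called 6.03, 5.28 and 5.28% of the first kind and 2.23, 2.01 and 2.34% of the second, without overlap. Tandem matches lay near the first kind, at 7.77%. Of all possible promoter pairs up to 1 Mb, 6.56% were called in at least 1 replicate and 2.35% in all 3. The directions were not compared at matched distances. The form that starts with CCA was 1 of 5 searched after seeing the data. The form CC, any letter, C, any 2 letters, G, any 2 letters and GGCAG, on 12.9% of fragments, gave 7.35, 5.46 and 5.43% for facing, tandem and outward matches. The other 3 were too rare, with at most 13 possible facing pairs. The facing sites of 1 high-scoring pair of protein-coding promoters are shown in GRCh37 with the match in capitals, each written 5′ to 3′ on the strand of its match.
*C18orf25* (chr18:43753448-43753487, plus strand): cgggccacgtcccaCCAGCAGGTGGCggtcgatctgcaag
*LOXHD1* (chr18:44238413-44238452, minus strand): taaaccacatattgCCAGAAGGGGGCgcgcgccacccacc

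*C18orf25* and *LOXHD1*, a gene of hair cell function in the inner ear, lie 480.7 kb apart and scored 22.97, 24.17 and 27.54 (24.9 ± 2.37).

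The 10 highest mean scores among the 3504 pairs called in all 3 replicates with a protein-coding start on both fragments ran from 47.2 to 177, against a median of 8.78. The fragments of *ADAM30*, a member of the ADAM protease family, and *PDE4DIP*, which encodes myomegalin, scored 142.41, 203.52 and 186.27 (177 ± 31.5). *PHGDH*, the first enzyme of serine synthesis, and the same *PDE4DIP* fragment scored 26.74, 23.54 and 26.34 (25.5 ± 1.74). Both pairs join fragments on either side of the centromere of chromosome 1 in GRCh37, 24640 and 24870 kb apart, and were among the 5 longest of all such pairs. *ETHE1*/*ZNF575* with *EPS8L1*/*RDH13* (11550 kb) and *GTF2A1* with *GALC* (6773 kb) were also among these 5, at scores near the minimum, with means of 6.73 and 6.06. Neither of these was listed in the merged calls, which held 99.0% of the promoter pairs called in all 3 replicates. No 31-base word was shared by the fragments of either *PDE4DIP* pair. Whether the order of these fragments in GRCh37 bears on the scores was not tested.

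On chromosome 9, *RNF20*, a ubiquitin ligase of histone H2B, and *NIPSNAP3A* scored 56.63, 48.56 and 69.85 (58.3 ± 10.7) at 3215 kb. The fragment next to it, of *PGAP4*, had a mean of 53.1 ± 13.3 with the same *NIPSNAP3A* fragment, and *PPP3R2*, a calcineurin subunit, scored 56.91, 53.87 and 51.87 (54.2 ± 2.54) with the olfactory receptor gene *OR13D1* at 3102 kb. Thus 3 of the 10 pairs joined the same 2 neighbourhoods of chromosome 9. *MGST2*, a glutathione transferase, and *MAML3*, a Notch coactivator, scored 35.05 and 36.15 in replicates 1 and 2 and 98.6 in replicate 3. This pair and *ADAM30*–*PDE4DIP* were among the 3 with the largest differences between replicates. Of the rest, *HECTD3*/*UROD*–*TESK2* had a mean of 49.2 ± 7.21, *CD58*–*TTF2* one of 48.4 ± 10.9 and *CRBN*–*SETMAR* one of 47.2 ± 13.4.

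Pairs called in all 3 replicates joined 5778 promoter fragments into 1320 connected groups. Most fragments (3563, 61.7%) had a single promoter partner, and 342 had at least 5. Of the groups, 586 held 2 fragments and 111 held at least 10, the latter with 1740 fragments in all. There were 640 closed triangles of promoter fragments, and 14.4% of connected triples were closed.

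**Figure D3:**
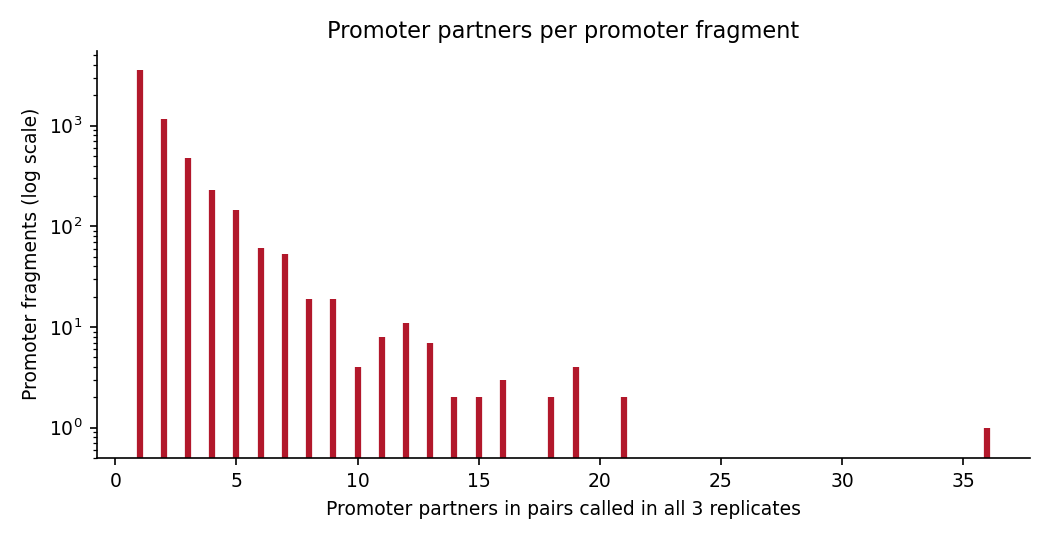
Number of promoter fragments (log axis) by number of promoter partners in pairs called in all 3 replicates. Counts fall from 3563 fragments with 1 partner to the single fragment of *H2AC12*/*H2BC12* with 36.

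The largest group was that of the histone genes on chromosome 6 (26016682 to 30103981, GRCh37). It held 62 fragments, 35 of them with a histone start, in 225 pairs with 266 of the 640 triangles, and the median distance of its pairs was 1492 kb. The fragment of *H2AC12* and *H2BC12* (27113447 to 27115524), whose promoter sequence holds the octamer and TATA letters, had 41, 42 and 42 promoter partners in replicates 1, 2 and 3 and 36 in all of them. Of these 36, 30 held a histone start. They lay 658.8 to 1777 kb away, and their mean scores ran from 6.45 to 49.8 with a median of 17.5. The highest was the *H2AC14*/*H2BC14* fragment, with scores of 35.71, 78.70 and 35.01 (49.8 ± 25.0), replicate 2 standing above the other two. The fragments of *H4C9* and of *H2AC17*/*H3C12* each had 21 promoter partners in all 3 replicates, 19 and 20 of them with a histone start. Histone genes resemble each other in sequence: the *H2AC12*/*H2BC12* and *H2AC14*/*H2BC14* fragments shared 2.39% of their 31-base words. At least 1% was shared in 186 of the 5334 pairs (3.49%), and at least 5% in 2. The part of shared sequence in these scores was not tested.

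The group that followed was on chromosome 1 (152061083 to 155037484) and held 61 fragments in 107 pairs, among them those of the epidermal differentiation genes *FLG*, *IVL* and the LCE and SPRR families, which form the outer skin. Its fragment with the most partners, that of *LCE2C*, had 18. The third lay in the major histocompatibility complex on chromosome 6 (30455605 to 33240206), with 59 fragments in 102 pairs and only 3 triangles. On chromosome 5 the fragments of *PCDHB5*, a clustered protocadherin of neuronal surfaces, and of *DIAPH1*, a formin that nucleates actin, each had 19 promoter partners in all 3 replicates, as did those of the histone genes *H3C10* and *H4C11* on chromosome 6. Most partners of both were protocadherin promoters, and the *DIAPH1* fragment lay 127.9 to 459.0 kb from its own.

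Gene groups differed in how often their own promoters were called with each other. Of possible pairs up to 1 Mb, 102 of 352 (29.0%) between histone fragments were called in at least 1 replicate, where the rate of all promoter pairs at the same distances was 7.24%. In all 3 replicates it was 66 pairs (18.8% against 3.14%). Clustered protocadherins had 95 of 518 (18.3% against 7.99%; in all 3, 6.56% against 3.17%), with *PCDHB5*–*PCDHGA7* highest at 12.74, 15.39 and 19.77. Zinc finger (ZNF) genes had 139 of 1294 (10.7% against 7.11%; in all 3, 2.86% against 2.68%), with *ZNF491*–*ZNF20* highest at 41.69, 40.82 and 35.77. Olfactory receptor genes had 125 of 1710 (7.31% against 7.39%; in all 3, 1.52% against 2.84%), with *OR1J1*–*OR5C1* highest at a mean of 22.3 ± 4.42. Keratin and keratin-associated genes had 80 of 1408 (5.68% against 8.12%; in all 3, 1.14% against 3.20%), with *KRT20*–*KRT13* highest at a mean of 10.7 ± 4.41. Histone and protocadherin promoters were thus above the rate of all promoters by both counts and keratin genes below it. ZNF genes exceeded it in calls of any replicate but lay near it in calls of all 3, whereas olfactory receptor genes lay near it in the former and below it in the latter.

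HOX genes, the transcription factors that pattern the body axis, had no call within their clusters. None of 137 possible pairs of the 36 HOX fragments was listed in any replicate at a score of 5 or more, where the rate of all promoter pairs would give 10.4 pairs. The possible pairs had a median distance of 37.4 kb. HOX fragments did pair with promoters outside their clusters, in 108 pairs of which 42 were called in all 3 replicates. Of all promoter pairs, 28.1% were called in all 3. A promoter partner in all 3 replicates was held by 18 of the 36 HOX fragments, against 32.3% of all promoter fragments with a protein-coding start. These shares were not compared at matched distances, and the rate over possible pairs outside the clusters was not computed. *HOXD12* scored 29.1, 35.83 and 49.35 (38.1 ± 10.3) with the fragment of the pseudogenes *RNU6-1290P* and *RPL21P31* at 1068 kb. *HOXD3* scored 35.05, 32.48 and 31.83 (33.1 ± 1.70) with that of the noncoding genes *LINC01116* and *LINC01117* at 501.8 kb. Genes for ribosomal proteins (0 of 10 possible pairs) and oxidative phosphorylation (1 of 15) lie too far apart for a comparison.

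**Figure D4:**
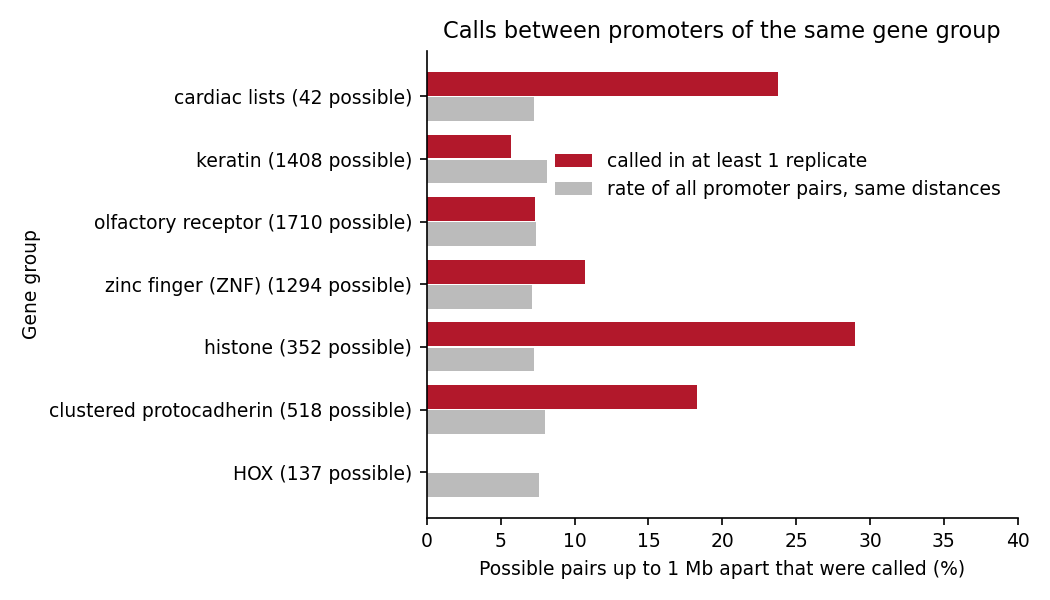
Share of possible pairs of promoter fragments of the same gene group, up to 1 Mb apart, called in at least 1 replicate (red, %) and the share at the rate of all promoter pairs at the same distances (grey, %), for groups of at least 42 possible pairs. Histone, protocadherin and ZNF pairs exceed the rate, and no HOX pair was called. Cardiac pairs also lie above it, but 7 of the 10 called include a gene already known from interactions of these data. That bar is therefore not independent evidence. Without these genes, 3 of 30 possible cardiac pairs (10%) were called, against 7.14%.

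Promoters of cardiac genes were described with 4 lists covering the sarcomere, ion channels and calcium handling, transcription factors, and signalling and peptides. Of 42 possible pairs up to 1 Mb apart, 10 were called in at least 1 replicate (23.8%) and 8 in all 3 (19.0%), where the rates of all promoter pairs at these distances were 7.26% and 3.35%. The lists hold 5 genes that were already known from interactions of these data (*MIR208A*, *MIR208B*, *CMTM5*, *NPTN* and *SESTD1*), and 7 of the 10 pairs include at least 1 of them, so this count is not independent evidence of contact between cardiac promoters. Without these genes, 3 of 30 possible pairs were called, each in all 3 replicates, where the rates of all promoter pairs were 7.14% and 3.22%. Of the 10, 6 lie in the *MYH6*–*MYH7* locus. *MYH6* and *MYH7*, the α- and β-myosin heavy chains of the heart, scored 18.69, 17.55 and 17.50 (17.9 ± 0.673) at 35.02 kb, the highest of the cardiac pairs and the one with the least relative spread. The *MIR208B* fragment, between them, scored 11.02, 8.96 and 9.24 (9.74 ± 1.12) with *MYH6* and 8.47, 6.98 and 8.13 (7.86 ± 0.781) with *MYH7*. *MIR208A* scored 7.43, 5.07 and 6.61 with *MYH7*. It was listed with *MIR208B* in replicates 1 and 3 only (5.35 and 6.11), and these fragments shared 14.8% of their 31-base words. *CMTM5* and *MYH7* were likewise listed in replicates 1 and 3 only (7.64 and 5.22).

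The other 4 cardiac pairs were called in all 3 replicates. *NPPA* and *NPPB*, the natriuretic peptides ANP and BNP, scored 9.72, 7.52 and 10.31 (9.18 ± 1.47) at 11.59 kb. *IRX3* and *IRX5*, Iroquois transcription factors, scored 10.98, 8.75 and 8.92 (9.55 ± 1.24) at 643.5 kb. *HCN4*, the pacemaker channel, and *NPTN*, the adhesion molecule neuroplastin, scored 9.80, 7.83 and 8.04 (8.56 ± 1.08) at 263.6 kb, and *TTN*, the sarcomeric spring titin, and *SESTD1* scored 6.33, 5.35 and 5.89 (5.86 ± 0.491) at 292.4 kb. Replicate 2 gave the lowest score, or none, in 9 of the 10 pairs, whereas its median over all promoter pairs, 7.11, was the highest of the 3.

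**Figure D5:**
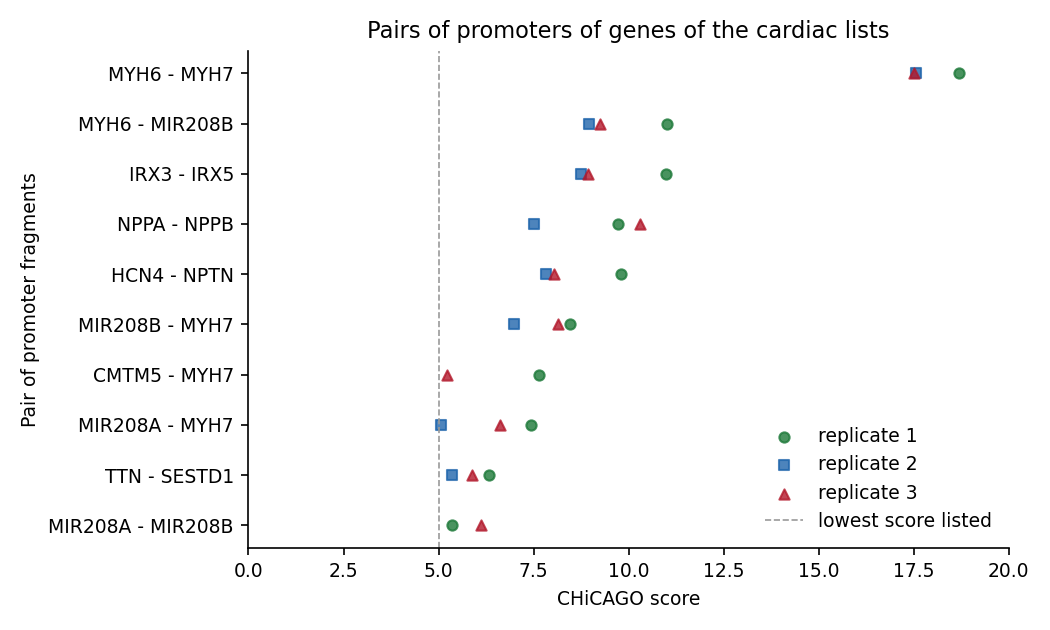
CHiCAGO score (x axis) of the 10 pairs of promoter fragments of genes of the cardiac lists in replicates 1, 2 and 3. The dashed line is the lowest score listed, 5; *MYH6*–*MYH7* stands apart at 17.50 to 18.69, and the pairs *MIR208A*–*MIR208B* and *CMTM5*–*MYH7* have no point for replicate 2.

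Individual cardiac genes paired mostly with promoter fragments of genes outside the cardiac lists. *RYR2*, the calcium release channel, had its highest promoter score with the fragment of *SNORA25*, a small nucleolar RNA gene, at 514.4 kb (28.93, 24.47 and 26.01). Whether that fragment lies within the body of *RYR2* itself was not examined, so it need not be a separate locus. *NPPA* scored highest with the fragment of *ENSG00000285646*, the spliceosomal RNA gene *RNU5E-1* and the pseudogene *RNU5E-4P* at 56.16 kb (22.59, 20.46 and 16.62). This was above its score with *NPPB*. The *NPPA* and *RNU5E-1* fragments shared 1.52% of their 31-base words, and the part of shared sequence in this score was not tested. *KCNQ1*, a repolarising potassium channel, whose fragment also holds *TRPM5*, scored 11.21, 11.39 and 12.96 with *SLC22A18*. *MYL7*, the atrial light chain of myosin, scored 12.44, 8.84 and 10.25 with *AEBP1*. The fragment of *TNNT2*, cardiac troponin T, also holds a start of *LAD1*. It scored 11.61, 11.30 and 9.97 with another fragment of *LAD1*. *NKX2-5*, a transcription factor of heart development, scored 8.03, 8.48 and 12.33 with *RPL26L1*. *HAND2* scored 9.93, 8.18 and 6.04 with *CEP44*/*FBXO8*. *GATA6* scored 7.43, 7.16 and 9.13 with a fragment that holds no annotated start. The fragments of *KCNH2*/*NOS3* (6.57 with *REPIN1*/*ZNF775*) and *DNAAF3*/*TNNI3* (7.18 with *UBE2S*) also had a partner in all 3 replicates. A call on a shared fragment cannot be assigned to 1 of its genes. *GATA4* with *DEFB136* was listed in replicates 1 and 2 only (5.19 and 9.14), and so was *GJA1* with *RNU1-18P* (7.21 and 8.84), beside 1 other promoter partner of *GJA1* that was called in all 3. *TBX5* with *RBM19* (5.65) and *EDNRA* with *RAPGEF2* (12.67) were listed in replicate 3 alone. *TBX3*, *ACTC1* and *PLN* had no promoter partner, although they were listed with 22, 37 and 13 other fragments.

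The share of fragments with a promoter partner in all 3 replicates was 28.6% in the ion channel and calcium list (14 of 49), 34.1% in the sarcomere list (15 of 44), 36.6% in the transcription factor list (15 of 41) and 53.1% in the signalling and peptide list (17 of 32). The last list holds the 5 genes already known from these interactions, and without them it had 12 of 27 (44.4%). For all 14036 promoter fragments with a protein-coding start it was 32.3%. A list of pluripotency genes, which mark the stem cells before differentiation, had 5 of 15 (33.3%). The cardiac lists apart from signalling and peptides thus lay near the share of all such fragments, as did the pluripotency list. The calls hold contacts and no expression, so the identity of the cells could not be checked against their markers here.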

How the data were processed

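PCHi-C was performed on 3 biological replicates of hESC-CMs. The authors used HiCUP for mapping to GRCh37 and CHiCAGO, at its defaults, for calling, and tool versions were not given in the sources used here. The deposited values are CHiCAGO scores of pairs of *Hin*dIII fragments in each replicate and in the 3 merged. Scores under 5 are not listed. Neither the depth of sequencing nor read counts were analysed here, so the number of calls per replicate stands in for depth, and the precision rests on 3 replicates of 1 cell line.

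Scores were used as deposited. Distances are between fragment midpoints, and the larger score was kept where a replicate listed a pair in both orders. All 19075 promoter fragments matched *Hin*dIII fragments of GRCh37. Possible pairs were counted over the 802171 *Hin*dIII fragments within the length range of called fragments, without neighbours, and the rate for a gene group applied the share of all promoter pairs in each of 9 distance classes. Shared sequence is the percentage of 31-base words of the shorter fragment found on either strand of the longer one. Gene starts are those of GENCODE v44 in its GRCh37 version. Differences between kinds of pairs were averaged over distance classes within each replicate, weighted by promoter pairs, and tested over replicates with an exact sign-flip permutation test, since pairs are not replicates. The summary was tested on simulated data whose differences were known. Scripts ran in Python 3.11.15 (pandas 2.3.3, numpy 2.4.6, networkx 3.6.1, scipy 1.17.1), with plots by matplotlib 3.10.9.

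Members, lists and tests were chosen with earlier results of these data known. The text names the 10 pairs of protein-coding promoters with the highest mean score in all 3 replicates, the 5 longest, the 3 with the largest differences between replicates, 5 fragments with the most promoter partners (the last 2 of them tied with those of *H3C10* and *H4C11*, at 19), the 3 largest groups, all pairs of cardiac genes, the best partner of 24 cardiac genes and the best pair of each gene family. Some of these items are not reported here. The CTCF, HOX and *LCE2C* examples were chosen after their values were seen. Alternatives were score minimums of 7 and 10, each replicate left out, the merged calls, other definitions of a promoter fragment, distance limits, ordered pairs and other gene starts.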

Additional observations from a re-analysis of the deposited data

How the results depend on the processing

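No paired analysis was possible because all samples belong to 1 condition, so replicate numbers pair no groups. Kinds of pairs were compared within each replicate. The higher median score of promoter pairs within distance classes kept its direction under 14 alternatives, at 0.425 to 0.731. The difference in recurrence, −0.312 percentage points, did not keep its direction. It became 5.17 with promoter fragments listed in all 3 replicates, 1.07 with those listed in the same replicate, 1.49 with those also listed with a non-promoter fragment, 0.390 up to 1 Mb, 3.95 without distance classes, and 0.312 to 1.37 when a replicate was left out. It was −3.34 with scores of at least 7, −5.83 with scores of at least 10, −1.76 for ordered pairs, −0.616 over 50 kb and −0.399 with fragments of the merged calls added. The alternatives without distance classes, with non-promoter listings and without 5 cardiac genes were chosen after seeing the data.

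With scores of at least 7, 9591 pairs remained, 28.9% of them in all 3 replicates, at 12.2% of calls and a median score of 9.51. With scores of at least 10 it was 4164 pairs, 30.1%, 13.7%, a median distance of 421.0 kb, a median score of 13.2 and 539 connected groups. The merged calls gave 12184 pairs, 8.03% of calls, 309.9 kb and a median score of 7.32. With a replicate left out, 41.9 to 43.3% of pairs were in all those left, at 10.03 to 10.15% of calls. Promoter fragments listed in all 3 replicates gave 32.7%, 7.89% of calls and a median score of 7.28, those of the same replicate 25.3%, 9.37% and 7.12, and those also listed with a non-promoter fragment 29.3%, 9.14%, 415.3 kb and 7.13. Adding fragments of the merged calls gave 10.6% of calls. Pairs up to 1 Mb gave 35.8%, 12.03%, 284.5 kb and 23.2% divergent, and those over 50 kb 27.2%, 10.1% and 427.8 kb. Ordered pairs gave 26.9% in all replicates. Starts of genes only lay on 92.8% of fragments and protein-coding starts on 76.7%. Pairs called in at least 1 replicate formed 773 groups. The cause of these changes was not tested, apart from those that follow from fewer calls or samples. The score minimum of 5 limits what absence from a replicate can show.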

Other observations

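The merged calls listed 12184 pairs of promoter fragments. Of these, 10367 were also in the union of the replicates, and 1817 were in no replicate alone. They held 99.0% of the pairs called in all 3 replicates and 22.0% of those called in 1. The order of the fragments differed between replicates in 222 pairs.

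The share of pairs within a chromosome that joined promoter fragments was highest on chromosome 19, at 29.7%, and lowest on chromosome 18, at 3.82%. Promoter fragments made up 7.98% and 1.31% of the *Hin*dIII fragments of these chromosomes, likewise the highest and the lowest shares. On chromosome X, 14.3% of pairs joined promoter fragments, which made up 1.78% of its fragments.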
